A study of Mus musculus with 30 samples.

Results

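Transcripts of 8 genes of heme synthesis were followed through erythroid differentiation in wildtype (WT) and Abcb10-null murine erythroleukemia (MEL) cells: *Alas1*, *Alas2*, *Alad*, *Uros*, *Urod*, *Cpox*, *Ppox* and *Fech*. They were chosen by name, as the rows of the deposited count table whose Ensembl identifier carries one of these symbols, and make up 8 of the 54532 genes listed. MEL is a line of mouse erythroid precursor cells that turns to hemoglobin production under dimethyl sulfoxide (DMSO). RNA was sequenced from WT and Abcb10-null cells kept without DMSO (day 0) or given 1.5% DMSO until day 2 or day 5, which made 30 libraries in 6 groups of 5 biological replicates. A single CRISPR/Cas9 clone of MEL cells stood for the Abcb10-null genotype, so an effect of the genotype and a trait of that clone cannot be told apart. Abcb10 is an ATP-binding cassette transporter of the inner mitochondrial membrane.

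Heme synthesis begins and ends in mitochondria, with cytosolic steps between. Aminolevulinic acid synthase joins glycine to succinyl-CoA in the matrix, and it exists as a housekeeping form, Alas1, and an erythroid form, Alas2, whose genes lie on different chromosomes. Alad, Uros and Urod act in the cytosol on the way from aminolevulinic acid to coproporphyrinogen. Cpox and Ppox oxidize porphyrinogens at the mitochondrial membranes, and Fech, the ferrochelatase, inserts iron into protoporphyrin IX to give heme. GATA1 is the erythroid transcription factor known for switching many of these genes on.

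Promoter sequence is shown for the erythroid form of the first enzyme and for *Cpox* and *Ppox*, because these 3 genes had unlike courses. Each line gives the coding strand from 200 to 51 bases before a RefSeq transcription start (build GRCm38.p6), and capitals mark a match to AGATAA or TGATAA, motifs read by GATA factors, which here lies on the opposite strand and so reads as TTATCT or TTATCA.
Alas2: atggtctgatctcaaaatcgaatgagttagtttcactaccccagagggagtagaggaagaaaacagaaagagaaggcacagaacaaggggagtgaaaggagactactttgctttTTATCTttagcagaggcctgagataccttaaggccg
Cpox: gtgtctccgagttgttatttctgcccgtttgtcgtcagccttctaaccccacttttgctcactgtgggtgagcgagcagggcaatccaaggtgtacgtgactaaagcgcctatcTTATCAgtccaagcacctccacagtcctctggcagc
Ppox: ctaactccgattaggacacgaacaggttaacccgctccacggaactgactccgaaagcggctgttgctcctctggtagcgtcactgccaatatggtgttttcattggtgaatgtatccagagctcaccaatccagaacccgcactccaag
These windows lie at chrX:150547217-150547366 on the plus strand, chr16:58670008-58670157 on the plus strand and chr1:171281237-171281386 on the minus strand, and none holds an annotated exon base. In *Alas2* and in *Cpox* the match lay from 86 to 81 bases before the start, and the *Ppox* window held none of these letters. Over both strands, AGATAA or TGATAA occurred in 3 of the 10 promoters listed for 7 of the members and in 10.6% of 32851 mouse promoter windows of the same 150 bases. The letters CCNCNCCC, of the kind read by Krüppel-like factors, were in 1 of the 10, an *Alad* promoter, and in 31.9% of all windows. A match is a description of the letters and not of a bound site.

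Library totals ran from 9906783 to 20157768 counts, and values are given as CPM, the count scaled to library size. Each of 8 erythroid markers passed 3 counts in all libraries at days 2 and 5, whereas 3 fibroblast markers summed to at most 6.33 CPM in any library and 7 myeloid and mast cell markers to at most 38.0 CPM. Markers of megakaryocytes summed to between 154 and 603 CPM and those of lymphoid cells to between 14.8 and 124 CPM. Most of the lymphoid sum was *Ptprc*, the pan-leukocyte CD45, which at day 5 ranged from 13.7 to 23.3 CPM in WT and from 44.0 to 61.5 CPM in the clone, and its part in the results was not tested. Among the day 5 WT libraries, replicate 5 stood apart, with 5587 CPM summed over the erythroid markers against 12228 to 14140 in the other 4, and its values are given separately where it mattered. *Abcb10* itself averaged 119, 567 and 1223 CPM in WT at days 0, 2 and 5 and 74.3, 202 and 212 CPM in the Abcb10-null clone. The count covers the whole gene and not the edited exons, so it does not read the edit directly.

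**Figure D1:**
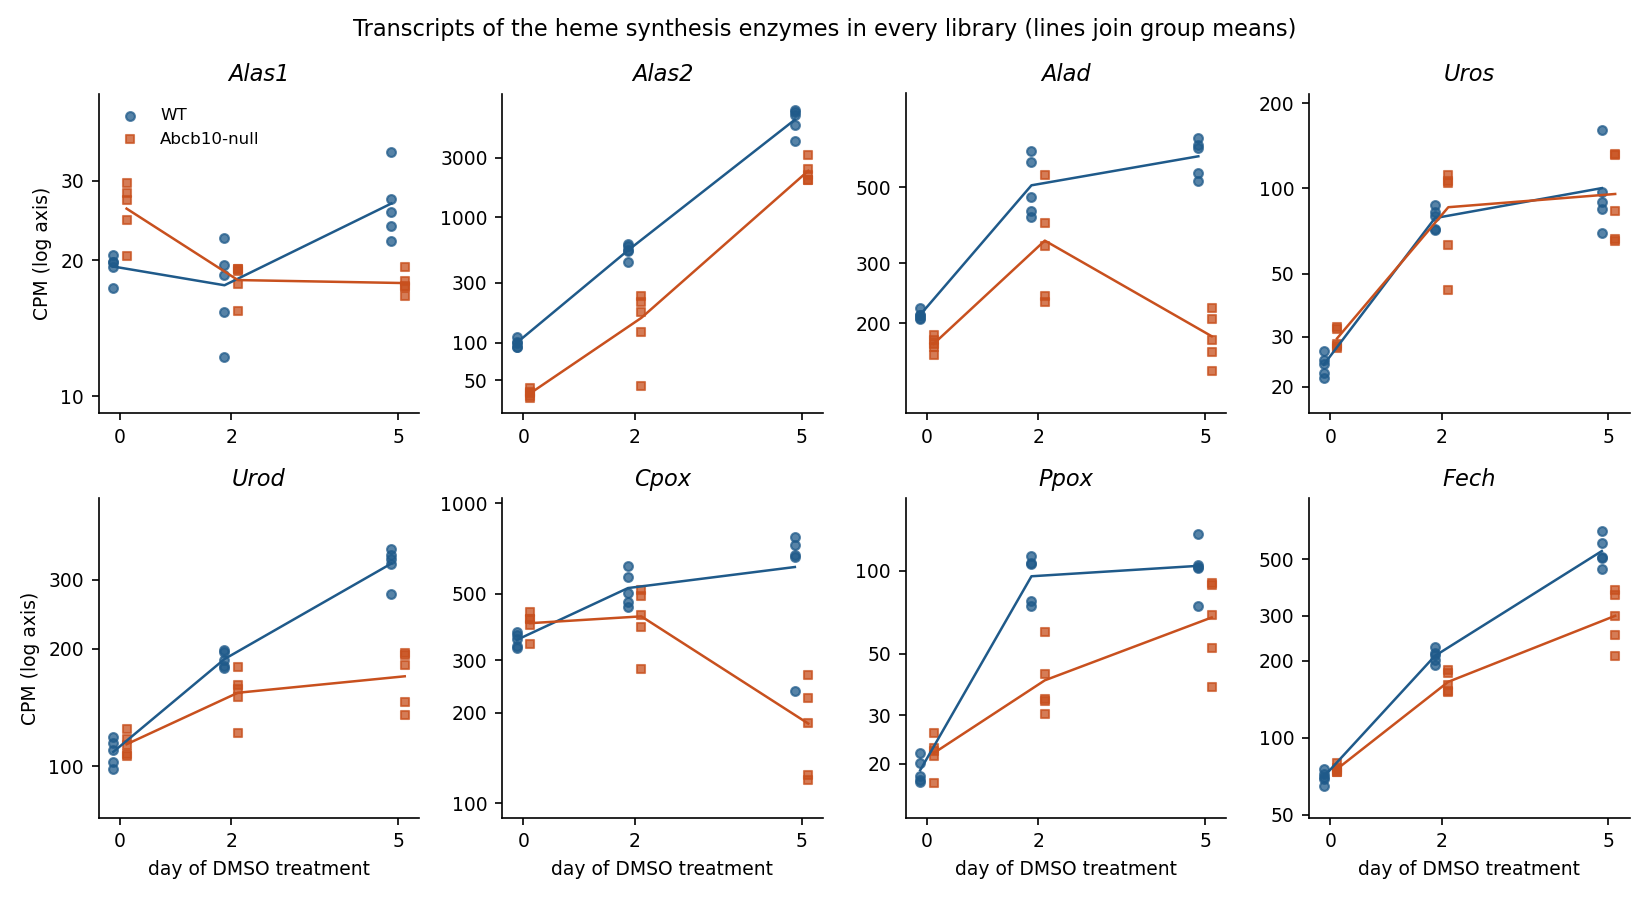
Each panel plots CPM on a log axis against the day of DMSO treatment for 1 gene, with a point for each of 5 libraries per genotype and day, circles for WT and squares for Abcb10-null, and lines joining the group means. *Alas2* climbed in both genotypes with WT above Abcb10-null at each day, while *Alad* and *Cpox* ended at means of 183 and 184 CPM in Abcb10-null cells against 617 and 613 CPM in WT.

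*Alas1* (ENSMUSG00000032786, chromosome 9, 106233455 to 106248654, minus strand), the housekeeping form of the first enzyme, stayed between 12.2 and 34.6 CPM over all 30 libraries. In WT, *Alas1* was at 20.5, 19.3, 19.8, 19.8 and 17.4 CPM at day 0, at 19.5, 22.4, 12.2, 18.5 and 15.3 CPM at day 2, and at 22.1, 25.6, 23.8, 27.3 and 34.6 CPM at day 5, listed by replicate. In Abcb10-null cells it was at 24.6, 29.6, 20.4, 28.2 and 27.2 CPM at day 0, at 19.1, 15.4, 17.7, 18.9 and 19.1 CPM at day 2, and at 17.6, 16.6, 17.5, 19.3 and 17.97 CPM at day 5. All day 5 libraries of the clone therefore lay below all day 5 WT libraries, and at day 0 the clone lay higher with 1 library inside the WT range. Over the 5 days, *Alas1* rose in WT (log2 fold change 0.46 ± 0.13 SE, edgeR adjusted p = 0.00566) and fell in the clone (-0.54 ± 0.11 SE, edgeR adjusted p = 0.000403). The difference between these courses was -0.999 ± 0.17 SE on the log2 scale (edgeR adjusted p = 7.5e-05 for the interaction). The fall in the clone came by day 2 (-0.50 ± 0.12 SE, edgeR adjusted p = 0.00532) and the rise in WT after it (0.61 ± 0.18 SE, edgeR adjusted p = 0.0175).

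*Alas2* (ENSMUSG00000025270, chromosome X, 150547375 to 150570638, plus strand), the erythroid form, rose steeply in both genotypes, from a lower start in the clone. In WT, *Alas2* was at 112, 102, 99.4, 92.2 and 93.0 CPM at day 0, at 536, 544, 614, 437 and 592 CPM at day 2, and at 7218, 5427, 6520.3, 6879.8 and 4062 CPM at day 5. In Abcb10-null cells it was at 36.4, 43.3, 40.2, 39.3 and 37.2 CPM at day 0, at 235, 45.0, 174, 212 and 122 CPM at day 2, and at 3159, 1995, 1979, 2434 and 2187 CPM at day 5. The genotypes did not overlap at any day, and replicate 2 of the clone at day 2 was still near the day 0 level. *Alas2* rose 60.4-fold in WT (log2 fold change 5.92 ± 0.18 SE) and 60.0-fold in the clone (5.91 ± 0.14 SE) from day 0 to day 5. The interaction was -0.0025 on the log2 scale, with a 95% interval of -0.41 to 0.40 (edgeR adjusted p = 0.995), so a difference between the rises within that interval was not detectable. Against WT, *Alas2* of the clone was lower by a log2 fold change of -1.35 ± 0.07 SE at day 0, of -1.85 ± 0.32 SE at day 2 and of -1.37 ± 0.18 SE at day 5 (edgeR adjusted p = 4.6e-11, 0.00313 and 0.000114). *Apex2*, on the opposite strand, shares 12.9% of the exon bases of *Alas2*, and its median count was 253 per library. The strand setting of the counting is not given in the sources used here, so reads on the shared bases cannot be told apart.

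The ratio of *Alas2* to *Alas1* within a library, as counts per kb of exon, does not depend on how libraries are scaled. In WT the ratio was 13.96, 13.6, 12.9, 11.9 and 13.7 at day 0, it was 70.4, 62.4, 129, 60.7 and 99.1 at day 2, and it was 838, 545, 701, 646 and 301 at day 5. In Abcb10-null cells the ratio was 3.80, 3.76, 5.06, 3.58 and 3.51 at day 0, it was 31.4, 7.49, 25.2, 28.7 and 16.4 at day 2, and it was 461, 308, 290.5, 323 and 312 at day 5. The erythroid form was thus above the housekeeping form per kb in each of the 30 libraries, and the genotypes overlapped only at day 5, through WT replicate 5. Of 7 comparisons tested, each reached an adjusted p under 0.05 (exact two-sided permutation test of 5 against 5 libraries, Benjamini-Hochberg adjusted over 7). Clone against WT, the log2 ratio differed by -1.76 at day 0 and by -2.05 at day 2 (adjusted p = 0.00926 for each, exact permutation test, from a raw p of 0.00794, the smallest that 5 against 5 can give). At day 5 it differed by -0.78 (adjusted p = 0.0397, exact permutation test). That call was lost when WT replicate 1, 2, 3 or 4 or clone replicate 2, 3, 4 or 5 was left out (-0.80 to -0.64), and it held without clone replicate 1 or without WT replicate 5, where the difference was -1.01. With the longest transcript as the length in place of all exons, the median day 0 ratios were 8.82 in WT and 2.44 in the clone, against 13.6 and 3.76.

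**Figure D2:**
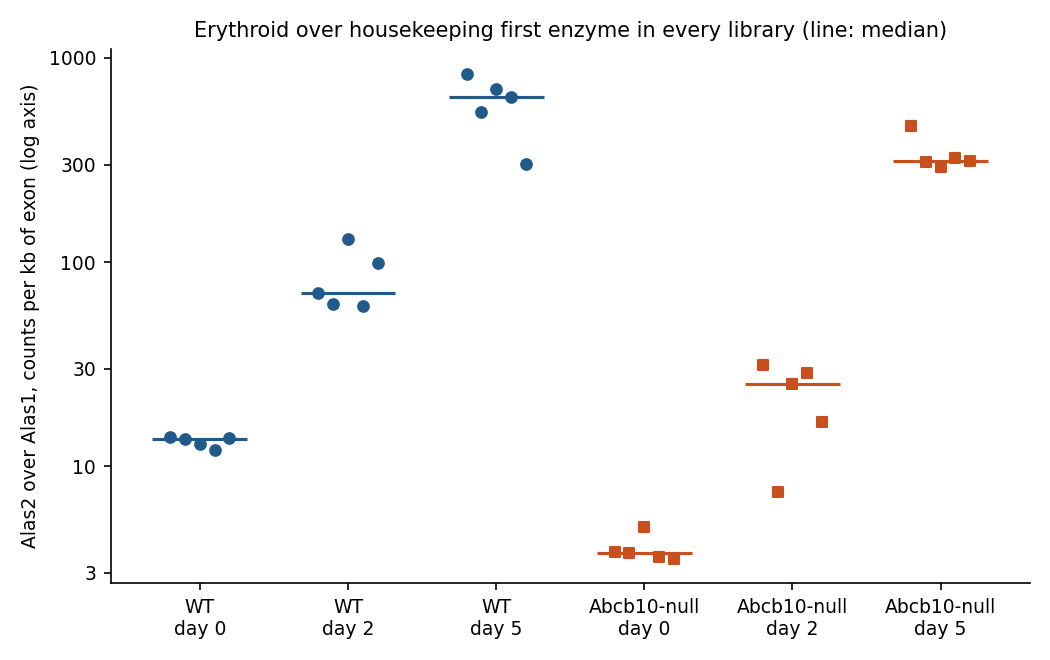
The ratio of *Alas2* to *Alas1* in counts per kb of exon is plotted on a log axis for every library of the 6 groups, with a line at each group's median. The medians run from 13.6 through 70.4 to 646 in WT and from 3.76 through 25.2 to 312 in Abcb10-null cells, with WT replicate 5 at day 5 among the clone's values at 301.

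*Alad* (ENSMUSG00000028393, chromosome 4, 62509169 to 62519918, minus strand), which joins aminolevulinic acid into porphobilinogen, rose and stayed high in WT but rose and fell back in the clone. In WT, *Alad* was at 208, 211, 222, 206 and 212 CPM at day 0, at 592, 638, 427, 469 and 409 CPM at day 2, and at 698, 523, 664, 650.3 and 549 CPM at day 5. In the clone it was at 170.3, 179, 173, 185 and 162 CPM at day 0, at 338, 231, 544, 393 and 241 CPM at day 2, and at 145, 206, 222, 178 and 165 CPM at day 5. The clone lay below WT without overlap at days 0 and 5, overlapped it at day 2, and its day 5 libraries overlapped its own day 0 libraries. After day 2, *Alad* fell in the clone by 0.93 ± 0.21 SE on the log2 scale (edgeR adjusted p = 0.00473) while the WT change was 0.29 ± 0.15 SE (edgeR adjusted p = 0.145), and the interaction was -1.22 ± 0.27 SE (edgeR adjusted p = 0.0134).

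*Uros* (ENSMUSG00000030979, chromosome 7, 133686243 to 133710072, minus strand), which closes the uroporphyrinogen III ring, rose in both genotypes and was not called between them at day 2 or day 5. It ranged from 21.5 to 26.7 CPM in WT and from 27.3 to 32.6 CPM in the clone at day 0, without overlap. At day 5 it ranged from 69.5 to 160.2 CPM in WT, highest in replicate 5, and from 65.2 to 132 CPM in the clone. The log2 fold change from day 0 to day 5 was 2.07 ± 0.19 SE in WT and 1.70 ± 0.19 SE in the clone (edgeR adjusted p = 4.5e-07 and 7.3e-07), and their difference was -0.35, with a 95% interval of -0.91 to 0.20 (edgeR adjusted p = 0.368). In WT the change after day 2 was 0.36 ± 0.19 SE (edgeR adjusted p = 0.166), which became 0.47 without replicate 2 of day 5 (edgeR adjusted p = 0.0472) and 0.14 without replicate 5 (edgeR adjusted p = 0.375).

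*Urod* (ENSMUSG00000028684, chromosome 4, 116989965 to 116994413, minus strand), which decarboxylates uroporphyrinogen, rose in both intervals in WT, and in the clone only up to day 2 by the test. Its WT libraries ranged from 98.3 to 119 CPM at day 0, from 179 to 198 CPM at day 2 and from 275 to 359.8 CPM at day 5. Those of the clone ranged from 106 to 125 CPM, from 121 to 179 CPM and from 135 to 194 CPM, and at day 5 none reached the lowest WT library. Between days 2 and 5 *Urod* changed by 0.82 ± 0.11 SE in WT (edgeR adjusted p = 0.000158) and by 0.14 ± 0.13 SE in the clone (edgeR adjusted p = 0.456). Over the 5 days the courses differed by -1.01 ± 0.14 SE on the log2 scale (edgeR adjusted p = 1.4e-05).

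*Cpox* (ENSMUSG00000022742, chromosome 16, 58670292 to 58717636, plus strand), which turns coproporphyrinogen into protoporphyrinogen, moved in opposite directions in the genotypes over the 5 days. In WT, *Cpox* was at 374, 363, 334, 352 and 329 CPM at day 0, at 449, 468, 620.4, 503 and 568 CPM at day 2, and at 772, 727, 661, 672 and 236 CPM at day 5. In the clone it was at 339, 394, 435, 412 and 412 CPM at day 0, at 425, 493, 279.9, 387 and 515 CPM at day 2, and at 185, 268, 225, 124 and 119 CPM at day 5. All clone libraries at day 5 lay below all those at days 0 and 2, and WT replicate 5 was the single WT library in the clone's day 5 range. Between day 0 and day 5 *Cpox* rose in WT (log2 fold change 0.81 ± 0.24 SE, edgeR adjusted p = 0.00789) and fell in the clone (-1.10 ± 0.18 SE, edgeR adjusted p = 6.1e-05), a difference of -1.90 ± 0.33 SE (edgeR adjusted p = 0.000113). Without WT replicate 5 of day 5 the WT rise was 1.01, and the change between days 2 and 5 in WT became 0.46 (edgeR adjusted p = 0.0158) in place of 0.23 (edgeR adjusted p = 0.512).

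*Ppox* (ENSMUSG00000062729, chromosome 1, 171275990 to 171281186, minus strand), which oxidizes protoporphyrinogen to protoporphyrin, rose early in WT and in both intervals in the clone. In WT, *Ppox* was at 21.9, 18.1, 17.2, 17.5 and 20.1 CPM at day 0, at 106, 113, 77.6, 74.6 and 106 CPM at day 2, and at 105, 136, 103, 102 and 74.5 CPM at day 5. In the clone it was at 16.99, 21.3, 25.8, 22.9 and 22.3 CPM at day 0, at 34.2, 42.2, 30.2, 33.8 and 60.1 CPM at day 2, and at 89.0, 90.3, 69.0, 52.3 and 38.0 CPM at day 5. The genotypes did not overlap at day 2 and overlapped at days 0 and 5. By day 2 *Ppox* had risen by 2.33 ± 0.13 SE on the log2 scale in WT and by 0.91 ± 0.18 SE in the clone (edgeR adjusted p = 3.2e-08 and 0.00147), and the difference was -1.45 ± 0.23 SE (edgeR adjusted p = 0.000376). In the clone it rose by a further 0.75 ± 0.24 SE after day 2 (edgeR adjusted p = 0.0282). That call was lost, with changes of 0.61 to 0.70, without clone replicate 1, 3 or 4 of day 2 or replicate 1 or 2 of day 5. On the opposite strand, *B4galt3* covers 17.5% of *Ppox* exon bases, with a median of 430 counts per library.

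*Fech* (ENSMUSG00000024588, chromosome 18, 64452914 to 64490251, minus strand), the last enzyme, rose in both intervals in both genotypes and less in the clone. It ranged from 64.7 to 75.3, from 192 to 226 and from 458 to 642 CPM in WT at days 0, 2 and 5. In the clone it ranged from 73.1 to 79.6, from 151 to 184 and from 208 to 379 CPM, with no overlap with WT at days 2 and 5. Over all 5 days *Fech* rose 7.65-fold in WT and 4.00-fold in the clone, and the difference was -0.93 ± 0.18 SE on the log2 scale (edgeR adjusted p = 0.000388).

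In WT all 8 members were higher at day 5 than at day 0, against 36.5% of all genes tested that were higher and 34.7% that were lower. By day 2, 7 members were higher than at day 0 and none lower, where 31.5% of all genes were higher and 30.7% lower. After day 2, 4 members were higher (*Alas1*, *Alas2*, *Urod* and *Fech*) and none lower, where 17% and 16.4% of all genes were. In the Abcb10-null clone 5 members were higher and 2 lower at day 5 than at day 0, against 33.9% and 33.3% of all genes, with *Alas1* and *Cpox* lower and *Alad* not called (0.08 ± 0.10 SE, edgeR adjusted p = 0.494). Day 2 against day 0, the clone had 6 members higher and *Alas1* lower, where 23.1% and 20.1% of all genes were. Day 5 against day 2, it had 3 higher (*Alas2*, *Ppox* and *Fech*) and 2 lower (*Alad* and *Cpox*), where 14.4% and 16.6% of all genes were. The median log2 fold change over the members from day 0 to day 5 was 1.83 in WT and 1.12 in the clone, beside 0.02 and 0.01 over all genes tested. Since RNA came from whole cultures, fewer cells expressing a gene and less RNA per cell cannot be told apart in any of these values.

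**Figure D3:**
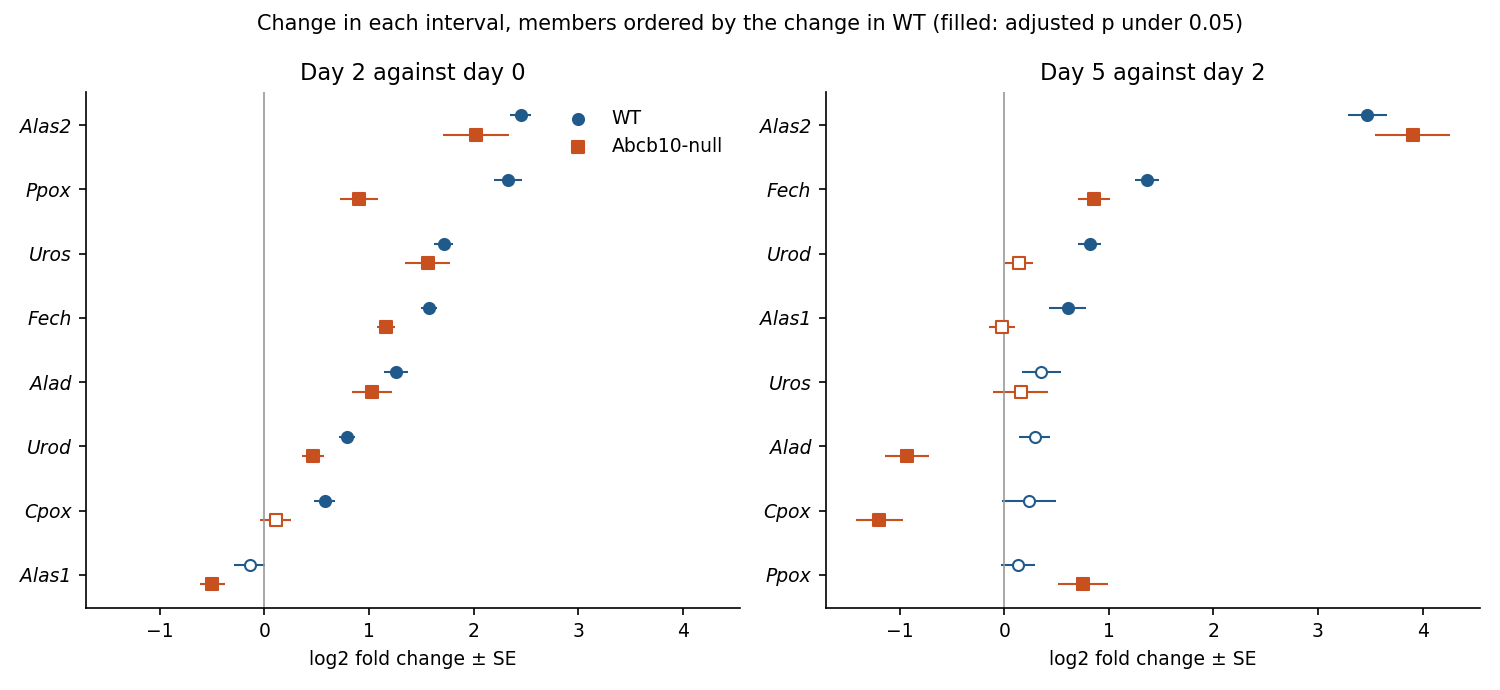
Log2 fold changes with their SE are plotted for day 2 against day 0 on the left and day 5 against day 2 on the right, with circles for WT and squares for Abcb10-null, filled where the edgeR adjusted p was under 0.05 and open elsewhere. *Ppox* stands apart between genotypes in the first interval (2.33 and 0.91), and *Alad* and *Cpox* of the clone lie below 0 in the second (-0.93 and -1.19).

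The order of rise was read from ratios of members within libraries, over 28 pairs for each genotype and interval (exact two-sided permutation test, Benjamini-Hochberg adjusted over the 28 pairs). The pairs share members and so are not independent. How often pairs of other genes differ was not tested, so the numbers of pairs do not set the members apart from other genes. From day 0 to day 2 in WT, 25 of the 28 pairs differed, in the order *Alas2*, *Ppox*, *Uros*, *Fech*, *Alad*, *Urod*, *Cpox* and *Alas1*. The 3 pairs that did not pass were *Alas2* with *Ppox*, *Uros* with *Fech*, and *Fech* with *Alad*. Which of *Alas2* and *Ppox* rose more was thus not resolved. From day 2 to day 5 in WT, 16 pairs differed, and *Alas2* led *Fech* by 2.09 and *Fech* led *Urod* by 0.55 on the log2 scale (adjusted p = 0.0185 for each, exact permutation test). Below *Urod*, no neighbouring pair in the order differed.

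In the clone the early order was *Alas2*, *Uros*, *Fech*, *Alad*, *Ppox*, *Urod*, *Cpox* and *Alas1*, in which none of the neighbouring pairs passed and 12 of the 28 pairs did. Replicate 2 at day 2, the library with *Alas2* at 45.0 CPM, decided much of this number, since 21 pairs passed without it. In the late interval 19 pairs passed, with *Alas2* ahead of *Fech* by 3.25 on the log2 scale (adjusted p = 0.0148, exact permutation test) and *Alas1* ahead of *Alad*, which fell, by 0.85 (adjusted p = 0.0234, exact permutation test).

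As a share of the log2 change from day 0 to day 5 that was present at day 2, *Ppox* had the highest mean in WT at 94.98% ± 11.7 (SD over 5 day 2 libraries). Its WT libraries ranged from 81.2% to 106% and overlapped those of *Uros* (78.4% to 93.1%), *Alad* (61.9% to 104%) and *Cpox* (51.8% to 118%). *Uros* had reached 85.2%, *Cpox* 81.2%, *Alad* 80.7%, *Fech* 53.6%, *Urod* 49.5% and *Alas2* 41.5% of their WT changes, whereas the value for *Alas1* was -36.7% ± 75.1 (SD over 5 day 2 libraries), from a day 2 change that was not called. Without 1 library the *Cpox* share in WT ran from 55.8% to 96.5%. In the clone *Uros* had reached 89.3%, *Urod* 76.0%, *Fech* 57.7%, *Ppox* 53.5% and *Alas2* 30.5%, and *Alas1* 96.5% of its fall, while *Cpox* stood at -4.12%. The SD over 5 day 2 libraries was 36.8 for *Uros*, 36.7 for *Urod*, 6.87 for *Fech*, 25.1 for *Ppox* and 16.4 for *Alas2*. For *Alas1* and *Cpox* it was 24.8 and 29.7. Ranges of *Uros* (34.9% to 118%), *Fech* (50.95% to 65.6%), *Ppox* (30.4% to 93.7%) and *Urod* overlapped, so their order was not resolved. The clone's *Urod* range took in the whole WT range of 44.9% to 54.2%. Counted in CPM in place of log2, *Alas2* had made 7.52% of its rise by day 2 in WT and 5.12% in the clone. Most of the final CPM of *Alas2* thus came after day 2 in both genotypes. On that scale the shares were also lower for *Fech* (29.7% in WT and 40.1% in the clone) and, in WT, for *Urod* (35.8%) and *Uros* (71.6%).

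The genotypes were also compared at each day. At day 0, before DMSO, 3 members were higher in the clone (*Alas1*, *Uros* and *Cpox*) and 2 lower (*Alas2* and *Alad*), where 19.7% and 16.2% of all genes were. At day 2 none was higher and 4 were lower (*Alas2*, *Urod*, *Ppox* and *Fech*), against 14.9% and 16.9% of all genes. At day 5 none was higher and 7 were lower, *Uros* being the exception, against 19.8% and 17.8% of all genes, and 7 were also lower without WT replicate 5. The summed level of the 8 erythroid markers moved with the genotype too, from 2560 to 3512 CPM in WT and from 1859 to 2691 CPM in the clone at day 2, and from 5587 to 14140 CPM in WT and from 2494 to 3758 CPM in the clone at day 5, and their part in these differences was not tested. The weakest calls lay near the threshold and were lost when most single libraries were left out. *Cpox* at day 0 (0.18 ± 0.07 SE, edgeR adjusted p = 0.0403) was called without WT replicate 1 or clone replicate 1 and lost without any of the other 8 libraries (0.14 to 0.18). *Urod* at day 2 (-0.34 ± 0.11 SE, edgeR adjusted p = 0.0374) was called without clone replicate 3 or 5 and lost without any of the other 8 (-0.35 to -0.26). *Ppox* at day 5 (-0.63 ± 0.22 SE, edgeR adjusted p = 0.0407) was called without WT replicate 5 or clone replicate 1 or 2 and lost without any of the other 7 (-0.66 to -0.48). Just outside the threshold, *Alad* at day 2 (-0.59 ± 0.23 SE, edgeR adjusted p = 0.0606) was called without clone replicate 3 (-0.81), and *Ppox* at day 0 (0.19 ± 0.11 SE, edgeR adjusted p = 0.169) without clone replicate 1 (0.27).

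**Figure D4:**
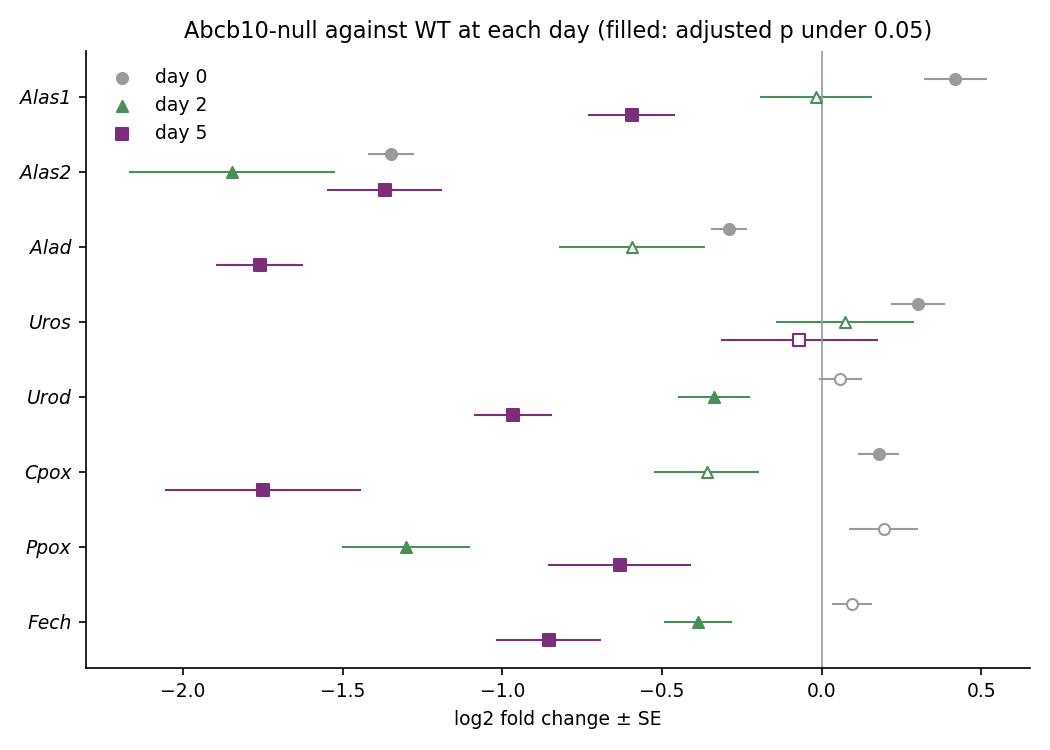
Log2 fold changes of Abcb10-null against WT with their SE are plotted for each member at day 0 (circles), day 2 (triangles) and day 5 (squares), filled where the edgeR adjusted p was under 0.05. *Alas2* lies between -1.85 and -1.35 at all 3 days, the day 5 values of *Alad* and *Cpox* lie at -1.76 and -1.75, and *Uros* stays near 0 after DMSO.

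The test of the difference between courses, the interaction of genotype and day, used 20 libraries for each pair of days, and these comparisons share libraries with those above. Over days 0 to 5, 6 members rose less or fell in the clone and none rose more, where 14.7% of all genes had a lower and 16.8% a higher change. *Ppox* was the weakest of these (-0.81 ± 0.27 SE, edgeR adjusted p = 0.0242), and *Alas2* and *Uros* did not pass. Over days 0 to 2, *Ppox* and *Fech* passed with lower changes and none with a higher change, where 10.8% and 12% of all genes did. Over days 2 to 5, *Alad*, *Urod* and *Cpox* passed with lower changes and none with a higher change, where 2.94% and 1.77% of all genes did. The *Alad* call held without each library in turn. The *Cpox* call (-1.42 ± 0.37 SE, edgeR adjusted p = 0.0285) was lost, at -1.38 to -1.26, without WT replicate 1, 2 or 4 or clone replicate 5 of day 2, or WT replicate 1, 3 or 4 or clone replicate 1, 4 or 5 of day 5. The *Urod* call (-0.68 ± 0.18 SE, edgeR adjusted p = 0.0298) was lost, at -0.66 to -0.58, without the same libraries and without WT replicate 5 or clone replicate 3 or 4 of day 2. In the first interval, *Urod* (-0.35 ± 0.13 SE) and *Cpox* (-0.49 ± 0.19 SE) lay just outside the threshold (edgeR adjusted p = 0.0536 and 0.0579). *Urod* was called there without clone replicate 1 or 2 of day 0, WT replicate 1 or 4 of day 2 or clone replicate 3 of day 2 (-0.45 to -0.40). *Cpox* was called without clone replicate 1 of day 0, WT replicate 1, 2 or 4 of day 2 or clone replicate 2 or 5 of day 2 (-0.58 to -0.55). *Alas1* (-0.38 ± 0.19 SE, edgeR adjusted p = 0.148) was called without WT replicate 3 of day 2 (-0.53).

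Levels of different members were compared as CPM per kb of exon. At day 0 in WT the order was *Alad* at 113 ± 3.25 (SD, n = 5), *Cpox* at 52.6, *Urod* at 42.0, *Alas2* at 41.5, *Uros* at 6.68, *Fech* at 5.08, *Ppox* at 4.20 and *Alas1* at 3.13 CPM per kb, and only *Urod* with *Alas2* and *Fech* with *Ppox* overlapped. At day 5 in WT *Alas2* headed the order at 2506 ± 535 CPM per kb (SD, n = 5), followed by *Alad* at 329.6 and *Urod* at 127 CPM per kb. In the clone at day 5 *Alas2* stood at 978 ± 203 CPM per kb (SD, n = 5), *Alad* at 97.9 and *Urod* at 65.6 CPM per kb, with no overlap among these 3. *Cpox* had been in the second place of both genotypes at day 0, and at day 5 its libraries overlapped those of *Uros* in both. In WT this overlap came through *Cpox* of replicate 5, at 35.4 CPM per kb against 44.8 for the highest *Uros* library. *Alas1* was the lowest at every day in both genotypes on this scale. With the longest transcript as the length, a choice added after seeing the data, *Ppox* was the lowest at day 0 in both genotypes, at 4.30 against 5.69 CPM per kb for *Alas1* in WT and at 4.95 against 7.65 in the clone, and *Cpox* headed the clone's day 0 order at 129 against 98.3 for *Alad*. At day 5 *Alas2* was also the highest with that length, and *Urod* and *Alad* of the clone then overlapped.

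**Figure D5:**
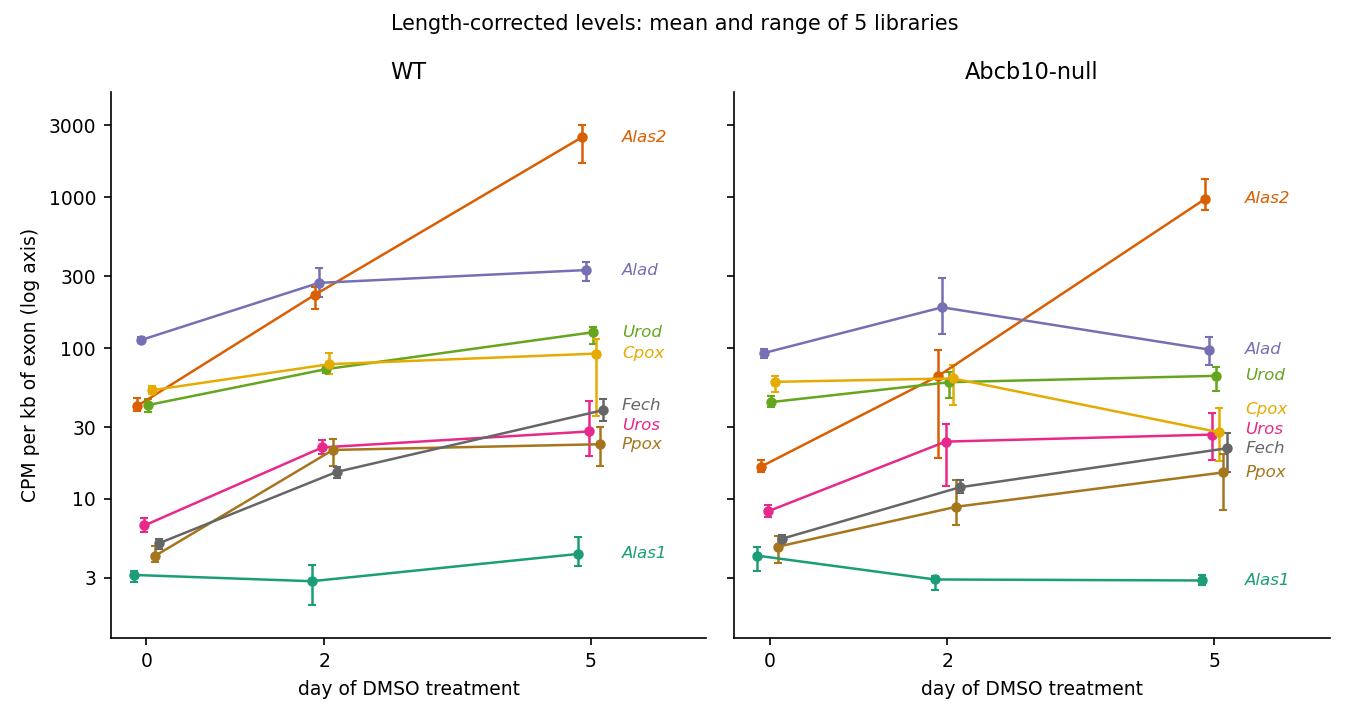
CPM per kb of exon is plotted on a log axis against the day of DMSO treatment for the 8 members, WT on the left and Abcb10-null on the right, with points at the mean and bars from the lowest to the highest of 5 libraries. The mean of *Alas2* passes that of *Alad* between days 2 and 5 in both panels, though their ranges already overlap at day 2 in WT. The *Alas2* mean reaches 2506 CPM per kb in WT and 978 in Abcb10-null cells, while the group means of *Alas1* stay at 4.32 CPM per kb or less.

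Another 28 genes around the pathway were read from the same fits: suppliers of glycine and succinyl-CoA, *Clpx*, a mitochondrial chaperone that acts on Alas, carriers of the mitochondrial membranes, partners of the enzymes, iron-sulfur assembly, heme export and breakdown, and regulators. Between day 0 and day 5 in WT, 12 of the 28 were higher and 10 lower, beside 36.5% and 34.7% of all genes, and in the clone also 12 and 10, beside 33.9% and 33.3%. At day 5, 7 of the 28 were higher and 11 lower in the clone than in WT, beside 19.8% and 17.8% of all genes. The 3 with the largest WT rise were *Abcb10* (3.36 ± 0.09 SE on the log2 scale), *Fam210b* (2.94 ± 0.15 SE), a mitochondrial protein tied to ferrochelatase and iron import, and *Slc25a37* (2.76 ± 0.22 SE), the mitochondrial iron carrier mitoferrin-1. In the clone *Abcb10*, *Fam210b* and *Slc25a37* rose by 1.52 ± 0.10, 2.14 ± 0.14 and 1.11 ± 0.15 SE. Those that fell in WT included *Hmox1* (-2.29 ± 0.27 SE), the heme-degrading oxygenase, and *Shmt2* (-2.11 ± 0.26 SE), which makes glycine in mitochondria. In the clone *Hmox1* rose by 0.80 ± 0.13 SE (edgeR adjusted p = 4.0e-05), and the *Shmt2* change was 0.10 ± 0.18 SE (edgeR adjusted p = 0.644). Among 5 regulators (*Gata1*, *Klf1*, *Nfe2*, *Tal1* and *Bach1*), all 5 were higher at day 5 than at day 0 in WT, where 36.5% of all genes were, and in the clone 3 were higher and 2 lower. Of the 5, 4 were lower in the clone than in WT at day 5, where 17.8% of all genes were.

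Among 8552 genes with a mean of at least 10 CPM, those whose log2(CPM + 0.5) tracked *Alas2* most closely over the 30 libraries were *Hbb-bs* (Pearson's r = 0.98), *Ptp4a3* (0.97), *Hba-a1* (0.97), *Asic4* (0.97) and *Kalrn* (0.97). *Hbb-bs* and *Hba-a1* are adult globin genes, whose RNA was depleted before sequencing. For *Alas1* the closest were *Pip4k2c*, *Washc2*, *Itsn1*, *Mcl1* and *Dcaf11*, each with r = 0.70. Such values describe libraries that share genotype and day, and those for *Alas1* were much weaker.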

How the data were processed

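RNA from 30 cultures was sequenced in stranded libraries depleted of ribosomal and globin RNA. The authors trimmed adapters with cutadapt, aligned to GRCm38 with STAR 2.6.1b and counted Ensembl genes with featureCounts 1.6.3, and the deposited values are raw counts per gene. Groups and replicate numbers came from the sample labels, and the replicates are labelled biological. Genes were tested with edgeR 4.0.16 (TMM, filterByExpr, glmQLFit, glmQLFTest) in R 4.3.3, on all genes, using only the libraries of the groups compared, with Benjamini-Hochberg adjusted p under 0.05 as a call. CPM is the count over the TMM-scaled library size, as edgeR gives it. Within-library ratios used counts plus 0.5 and exon lengths from GENCODE M21, and were tested by exact permutation. The share reached by day 2 used mean log2(CPM + 0.5).

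The members and lists were chosen with earlier results of these data known. Text names the 8 members, *Abcb10*, genes with the largest and smallest changes (up to 3 each) among the 28 other pathway genes from day 0 to 5 in WT, and the 5 genes most correlated with *Alas1* and with *Alas2*. *Klf1*, *Clpx*, *Ptprc*, the other regulators and the libraries singled out were named after their values were seen. Some genes that these rules take in are not reported here.

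Whether same-numbered libraries deviate together was checked in 75 pairs: correlations of deviations ranged from -0.34 to 0.50 with a median of -0.03, so libraries were not treated as paired. Replicates differed beyond counting error in each group. Alternatives were DESeq2 1.42.0, its size factors in edgeR, other filters, all libraries in 1 fit, a replicate block, each library left out and, added after seeing the data, another length for levels per kb. The steps were tested on simulated data.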

Additional observations from a re-analysis of the deposited data

Results flagged for a closer look

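Of 54 groups of 5 libraries (8 members and the *Alas2* to *Alas1* ratio in 6 groups), 3 held a library far from the others by Dixon's test, near the 1 in 20 that chance gives. *Cpox* was at 236 CPM in WT replicate 5 at day 5, with the other 4 libraries from 661 to 772 CPM. The *Alas2* to *Alas1* ratio per kb was 5.06 in clone replicate 3 at day 0, with the others from 3.51 to 3.80, and 461 in clone replicate 1 at day 5, with the others from 290.5 to 323.

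The change between days differed between genotypes in 11 tests of the interaction (edgeR, adjusted p under 0.05), given here as the log2 change in Abcb10-null minus that in WT. From day 0 to day 2 these were *Ppox* (-1.45) and *Fech* (-0.43). From day 2 to day 5 they were *Alad* (-1.22), *Urod* (-0.68) and *Cpox* (-1.42). From day 0 to day 5 they were *Alas1* (-0.999), *Alad* (-1.45), *Urod* (-1.01), *Cpox* (-1.90), *Ppox* (-0.81) and *Fech* (-0.93).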

How the results depend on the processing

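Totals of members called under each alternative were within 1.5 times the reported number, apart from the following. With all 30 libraries in 1 fit, 1 member was higher and 1 lower in the clone at day 0, 1 had a lower change over days 0 to 2 and 5 had over days 2 to 5. With DESeq2, with its size factors in edgeR, with at least 10 counts in every library, or without globin, mitochondria-encoded and small RNA genes, 4 members had a lower change over days 0 to 2 in place of 2. Leaving out 1 library gave 2 to 4 members there and 1 to 3 over days 2 to 5. *Fech* at day 2 lost its call with all genes of at least 1 count (adjusted p = 0.117), and *Alad* and *Uros* at day 0 lost theirs with all 30 libraries in 1 fit (0.295 and 0.42). *Cpox* at day 0 lost its call with DESeq2, its size factors and all 30 libraries (0.0555, 0.0596 and 0.65), *Urod* at day 2 with all genes of at least 1 count and without globin, mitochondria-encoded and small RNA genes (0.189 and 0.0522), and the *Urod* interaction over days 2 to 5 with all genes of at least 1 count (0.153). *Alad* at day 2 gained one with DESeq2, all genes of at least 1 count and all 30 libraries (0.0439, 0.00606 and 0.00903). For the interactions, *Fech* over days 0 to 2 lost its call with all genes of at least 1 count and with all 30 libraries (0.0881 and 0.0626), and *Alas1* over days 2 to 5 gained one with DESeq2 and with all 30 libraries (0.0466 and 0.0336), the latter also for *Fech* (0.0442).

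Directions turned only for values that were not called. *Alas1* at day 2 was 0.013 with all genes of at least 1 count, 0.037 with all 30 libraries, 0.020 without globin, mitochondria-encoded and small RNA genes, and -0.12 to 0.096 without 1 library. *Alad* of the clone at day 5 against day 0 was -0.0078 with all genes of at least 1 count. The *Alas2* interaction over days 0 to 5 was 0.0093 with that filter, 0.0017 without the globin, mitochondria-encoded and small RNA genes, and -0.13 to 0.059 without 1 library. Without 1 library, *Uros* took values of -0.031 to 0.24 (day 2) and -0.23 to 0.15 (day 5) between genotypes, of -0.0073 to 0.27 for day 5 against day 2 in the clone and of -0.33 to 0.082 for the interaction over days 2 to 5, *Alas1* of -0.20 to 0.012 for day 2 against day 0 in WT, and the share of the *Cpox* change reached by day 2 in the clone values of -15.8% to 2.80%. The clone's early order of rise had 10 to 21 pairs and the day 5 difference of the *Alas2* to *Alas1* ratio ran from -1.01 to -0.64 without 1 library. The cause was not tested.

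Replicate numbers did not pair the libraries. With the replicate block, *Alas1* and *Uros* at day 2 were 0.013 and -0.0012. *Cpox* at day 0, *Urod* at day 2 and *Ppox* of the clone at day 5 against day 2 were no longer called (adjusted p = 0.0834, 0.0591 and 0.0678), *Alad* at day 2 was (0.049), and 0 pairs were called in each order of rise, since 5 numbers cannot pass its threshold.

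Among all genes, 1584 were called at day 0 between genotypes with all 30 libraries in 1 fit in place of 4642, of which 66.2% in place of 54.9% were higher. For the interaction over days 2 to 5, DESeq2 called 1267 and the fit of all libraries 1705 in place of 657. With all genes of at least 1 count, which lets low genes in, 62.9% in place of 51.3% of the genes called in WT between days 0 and 5 were higher, and 56.3% in place of 37.6% for the interaction over days 2 to 5, while the median of all genes in WT between days 0 and 5 went from 0.02 to 1.3503. Counts of *Alas1* (183 to 591 per library) were the lowest of the members and limit the precision of its ratios.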

Other observations

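Over the 30 libraries, log2 levels of *Fech* followed those of *Alas2* (r = 0.93), *Urod* (0.92) and *Ppox* (0.90), whereas *Cpox* had r = -0.05 with *Alas2* and 0.11 with *Fech*, and its highest value was 0.57 with *Alad*. *Alas1* had r between -0.12 and 0.19 with each other member. These are descriptions over libraries that share genotype, day and depth.

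Within the day 2 libraries of the clone the members spread unlike one another. The lowest *Alas2* (45.0 and 122 CPM), *Alad* (231 and 241 CPM) and *Uros* (43.8 and 63.1 CPM) were in replicates 2 and 5, and so were the highest *Cpox* (493 and 515 CPM) and *Ppox* (42.2 and 60.1 CPM). The same libraries had *Klf1*, an erythroid transcription factor, at 245 and 198 CPM, with 132, 149 and 152 CPM in the others. This was noticed in the values and its part in the results was not tested.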
